A study of Rattus norvegicus with 6 samples.

Results

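The enzymes of cholesterol synthesis, the proteins that control them through the transcription factor SREBP2, and a small group of sterol carriers and exporters were followed in the livers of 6 male Sprague-Dawley rats. The 31 genes were listed by their place in the pathway, which was picked with earlier results of these data known, and each was found on the array through the RefSeq accession of its probes. All 31 had a probe above the filter on dim signal, out of 11251 named genes measured in all. A metal chelator, nitrilotriacetic acid trisodium monohydrate (NTA), was dosed at 1000 mg/kg/day in 3 of the rats, the other 3 received vehicle, and each rat had 1 one-colour Agilent array. The labels disagree on the vehicle, which is purified water in one field and corn oil in another, and on the length of dosing, which is 28 days in the design and 9 weeks in the protocol. Neither point was settled here. All rats were bought at 5 weeks of age, ate the same basal diet and carried no genetic change that the labels name.

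Cholesterol is built from acetyl-CoA. The first enzymes make mevalonate and turn it into isopentenyl diphosphate, prenyl transferases join such units into farnesyl diphosphate, squalene synthase and epoxidase lead to the closed ring of lanosterol, and a last series of enzymes trims lanosterol to cholesterol. The liver is a main site of this synthesis. When sterols in the endoplasmic reticulum run low, the escort protein SCAP carries SREBP2 to the Golgi, where it is cut and released to the nucleus, and INSIG1 and INSIG2 hold the complex back when sterols are plentiful. SREBP2 acts at promoters together with the factors NF-Y and Sp1. The exporters ABCG5 and ABCG8 answer to the oxysterol receptor LXR instead.

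Promoter windows are shown because SREBP2 and its partners act there. Most of the enzymes varied together from rat to rat, as described further on, and a link between that and the windows was not tested. RefSeq windows on the rat build GRCr8, each of 300 bases from 250 before to 50 after the annotated gene start, were matched by symbol for 26 of the 31 genes. Pmvk, Fdft1, Sqle, Stard4 and Soat2 had no entry in the table used. The windows below belong to 4 enzymes whose groups did not overlap, to the SREBP regulator Insig1 and to the exporter Abcg5, the last 2 with their lowest level in NTA replicate 2. They are written 5′ to 3′ on the gene's strand, with matches to the NF-Y box CCAAT and the Sp1 box GGGCGG, on either strand, in capitals.
Mvk: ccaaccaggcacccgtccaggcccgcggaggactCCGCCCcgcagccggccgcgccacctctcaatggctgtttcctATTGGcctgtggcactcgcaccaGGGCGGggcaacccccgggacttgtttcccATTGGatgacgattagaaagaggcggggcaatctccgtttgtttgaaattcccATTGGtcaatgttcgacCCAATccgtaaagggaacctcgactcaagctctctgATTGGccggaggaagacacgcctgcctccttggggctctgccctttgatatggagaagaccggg
Cyp51: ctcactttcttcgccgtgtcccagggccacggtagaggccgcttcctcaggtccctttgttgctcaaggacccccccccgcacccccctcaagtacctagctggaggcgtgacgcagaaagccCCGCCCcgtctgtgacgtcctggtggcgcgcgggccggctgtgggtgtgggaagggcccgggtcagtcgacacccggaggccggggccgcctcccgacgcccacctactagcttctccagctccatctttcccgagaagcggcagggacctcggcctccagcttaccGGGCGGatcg
Hsd17b7: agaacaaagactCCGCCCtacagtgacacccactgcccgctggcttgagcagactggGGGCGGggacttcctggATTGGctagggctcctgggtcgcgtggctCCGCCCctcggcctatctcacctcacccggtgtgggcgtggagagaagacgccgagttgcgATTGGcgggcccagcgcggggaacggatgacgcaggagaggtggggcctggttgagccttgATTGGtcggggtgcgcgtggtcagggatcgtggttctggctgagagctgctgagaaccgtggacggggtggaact
Dhcr7: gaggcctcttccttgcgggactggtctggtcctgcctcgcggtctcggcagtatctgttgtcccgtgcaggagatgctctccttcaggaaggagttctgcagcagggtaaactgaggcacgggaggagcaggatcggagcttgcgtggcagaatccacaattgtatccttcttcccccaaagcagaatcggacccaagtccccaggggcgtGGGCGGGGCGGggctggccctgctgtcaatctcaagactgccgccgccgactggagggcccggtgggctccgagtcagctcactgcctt
Insig1: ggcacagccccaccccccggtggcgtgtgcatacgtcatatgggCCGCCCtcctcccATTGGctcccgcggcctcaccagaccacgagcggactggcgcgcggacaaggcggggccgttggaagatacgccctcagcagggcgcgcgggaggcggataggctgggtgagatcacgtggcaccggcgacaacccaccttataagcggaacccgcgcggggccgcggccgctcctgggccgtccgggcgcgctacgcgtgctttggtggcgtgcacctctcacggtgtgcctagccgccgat
Abcg5: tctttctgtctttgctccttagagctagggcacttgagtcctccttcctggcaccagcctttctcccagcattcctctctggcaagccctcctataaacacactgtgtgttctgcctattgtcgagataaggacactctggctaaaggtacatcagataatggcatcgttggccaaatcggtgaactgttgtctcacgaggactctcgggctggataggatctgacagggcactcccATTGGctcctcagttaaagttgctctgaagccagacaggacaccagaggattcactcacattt

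On GRCr8 these windows are Mvk at chr12:47819454-47819753 on the minus strand, Cyp51 at chr4:30991443-30991742 on the plus strand, Hsd17b7 at chr13:84722705-84723004 on the minus strand. The others are Dhcr7 at chr1:208444184-208444483 on the plus strand, Insig1 at chr4:8057720-8058019 on the minus strand and Abcg5 at chr6:15717686-15717985 on the plus strand. The NF-Y box was found in 21 of the 26 windows (80.8%) and in 37.5% of all 33469 windows in the table, and the Sp1 box in 19 (73.1%) against 33.1%. The table also holds windows of genes not measured in this liver. The shares thus do not set the pathway apart from other measured genes. At least 2 NF-Y boxes were in 10 of the 16 enzyme windows (62.5%), 2 of the 10 windows of the other genes and 11.2% of all windows. Mvk and Nsdhl had 5 each, whereas Acat2, Cyp51 and Dhcr7 had none. A core of the sterol regulatory element, TCACNCCAC on either strand, matched 0 of the 26 windows and 1.12% of all windows. Matches may overlap one another, as the Sp1 matches in Dhcr7 do. The windows of Abcg5 and Abcg8, which are transcribed in opposite directions, share 295 bases. Their NF-Y box lies on the same bases and is counted for both genes. A match is a match of letters and says nothing of binding.

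The values are log2 signal minus the log2 of each array's 75th percentile, so 0 is the level of that percentile and 1 unit is a doubling. Between 62.4% and 64.5% of probes were well above background per array, and the 75th percentile of signal lay between 464 and 558. No other array shared the slide or the scan day of vehicle replicate 3, whose median local background was 40 against 54 to 61. The 3 NTA arrays were together on a slide of their own, which therefore cannot be told apart from the treatment. The hepatocyte markers Alb, Ttr, Apoa1, Tf, Cps1 and Hnf4a were well above background on all arrays. For 30 of the 31 genes the probe used was well above background on all 6 arrays. The exception was Abcg8, above it on 3 vehicle arrays and 2 NTA arrays, which passed the filter through the vehicle group.

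Most of the synthesis enzymes had a higher mean with NTA, and none of them passed the test. Of the 19 enzymes, 18 had a positive log2 difference between NTA and vehicle, against 43.9% of all 30353 features tested (named genes and unnamed probes) and 5478 of the 11251 named genes, with a median of 0.33 and a range of −0.06 to 0.81. The median over all features was −0.03. The enzymes varied together from rat to rat, so the 18 are not separate observations, and the rats of the groups overlapped. Relative to each gene's mean over the 6 rats, the enzyme median was 0.04 in vehicle replicate 2. It was 0.025 and 0.008 in NTA replicates 1 and 3. Of the 12 other genes, 5 were above 0 and 7 below, with a median of −0.10 and a range of −0.38 to 0.46, and over all 31 the median was 0.19 with 23 above 0. No gene of the 31 changed past the threshold in limma, with Benjamini-Hochberg adjusted p between 0.541 and 0.988, where 0.0297% of all features did. At an unadjusted p under 0.05 there were 6 genes, all higher with NTA, where 7.57% of all features were at that level (3.66% higher and 3.91% lower). The groups did not overlap for 7 genes, with NTA higher in each and lower in 0, where 13.6% of all features had separate groups (5.57% higher and 8.03% lower). With all 6 rats every difference was below 2-fold, and 5 genes differed by more than 1.5-fold. With 3 rats against 3 the smallest p of an exact two-sided permutation test is 0.1. Liver RNA mixes cell types, so fewer cells of a type and less RNA per cell cannot be told apart.

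**Figure D1:**
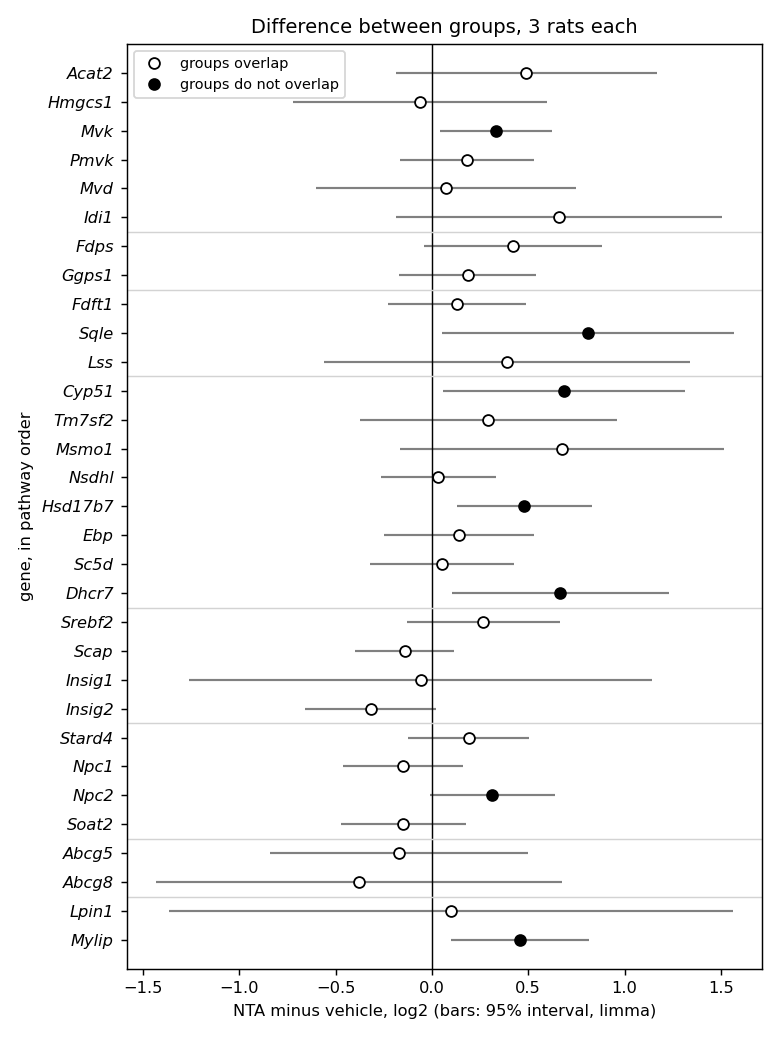
The log2 difference between NTA and vehicle (x axis, log2 units) for each of the 31 genes in pathway order (y axis, grey lines between steps), with bars for the 95% interval of limma, 3 rats per group, and filled points where the groups do not overlap. Filled points are all to the right of 0, and the bar crosses 0 for 25 of the 31 genes.

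The enzymes that lead to isopentenyl diphosphate had a median difference of 0.26, with 5 of 6 above 0. Hmgcs1, which condenses acetoacetyl-CoA and acetyl-CoA to HMG-CoA, was at 6.90, 7.19 and 7.31 in vehicle replicates 1 to 3 and at 7.01, 7.63 and 6.57 in NTA replicates 1 to 3. The NTA rats thus held both the highest and the lowest value, and the difference was −0.06 (95% interval −0.72 to 0.60; adjusted p = 0.973). Mvk, mevalonate kinase, was at −1.001, −0.91 and −1.14 with vehicle and at −0.69, −0.55 and −0.81 with NTA. Every NTA rat lay above every vehicle rat, by a mean of 0.33 (SE 0.12; limma, adjusted p = 0.615), or 1.26-fold. The next kinase, Pmvk, differed by 0.18 (95% interval −0.17 to 0.53), and Mvd, the decarboxylase that follows it, by 0.07 (95% interval −0.60 to 0.74).

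Idi1, the isomerase that makes dimethylallyl diphosphate, was at 1.51, 2.67 and 1.75 with vehicle and 2.36, 3.14 and 2.40 with NTA. Its mean difference of 0.66 (SE 0.35; limma, adjusted p = 0.723) came with overlapping groups, since vehicle replicate 2 lay above 2 of the NTA rats. It was 0.42 without vehicle replicate 1, 0.41 without NTA replicate 2 and 1.005 without vehicle replicate 2. Acat2, the cytosolic thiolase that starts the pathway, had a difference of 0.49 (SE 0.28), with the groups overlapping. The prenyl transferase Fdps, which makes farnesyl diphosphate, differed by 0.42 (95% interval −0.04 to 0.88). Its other probes gave 0.48 and 0.49, and for the latter the groups did not overlap. Ggps1, which makes the geranylgeranyl diphosphate used to anchor proteins in membranes, differed by 0.19 on the probe used and by −0.02 on its other probe.

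From squalene to lanosterol all 3 enzymes were above 0. Fdft1, squalene synthase and the first step committed to sterols, was at 3.11, 3.31 and 3.33 with vehicle and 3.19, 3.64 and 3.31 with NTA, a difference of 0.13 (95% interval −0.23 to 0.49; adjusted p = 0.868). Its second, dimmer probe gave 0.45. Sqle, the squalene epoxidase and a flux-controlling step, had the largest difference of the 31 genes with all 6 rats, though not in every alternative. It was at 1.36, 1.92 and 1.14 with vehicle and at 1.96, 2.90 and 1.98 with NTA. The groups were separate, but vehicle replicate 2 and NTA replicate 1 were only 0.04 apart (1.920 and 1.959), and NTA replicate 2 was far above the rest. The mean difference was 0.81, or 1.75-fold (SE 0.32; limma, adjusted p = 0.63), and the second probe gave 0.82 with the groups again separate. Without NTA replicate 2 the difference of Sqle was 0.50, below that of Mylip at 0.51, and with normexp background correction it was 0.75, below Cyp51 at 0.80 and Dhcr7 at 0.78. Lss, which closes the ring to lanosterol, was at −0.06, 1.30 and 1.08 with vehicle and 0.92, 1.67 and 0.89 with NTA. Its difference of 0.39 (SE 0.40) rested on vehicle replicate 1, and was −0.03 without that rat.

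All 8 enzymes that turn lanosterol into cholesterol had a difference above 0, with a median of 0.39, and in 3 of them the groups did not overlap. Cyp51, the lanosterol demethylase, was at 1.26, 1.91 and 1.86 with vehicle and 2.05, 2.82 and 2.22 with NTA, a difference of 0.69 or 1.61-fold (SE 0.26; limma, adjusted p = 0.622). Its second probe gave 0.68, with the groups also separate. Hsd17b7, the ketoreductase of the demethylation at carbon C-4, had the smallest p of the 31 genes with all 6 rats. It was at −0.52, −0.67 and −0.37 with vehicle and −0.20, 0.19 and −0.11 with NTA. The difference was 0.48, or 1.39-fold (SE 0.15; limma, adjusted p = 0.541), its p ranked 802 among all features, and the second probe gave 0.40. Hsd17b7 was also the 1 gene of the 31 with an unadjusted p under 0.05 in all 15 alternative analyses, which are not independent of one another.

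Dhcr7, whose product carries out a final reduction to cholesterol, was at 2.30, 2.84 and 2.83 with vehicle and 3.04, 3.74 and 3.20 with NTA. The groups were separate, with a difference of 0.67 or 1.59-fold (SE 0.23; limma, adjusted p = 0.601). Msmo1, the C-4 methyl oxidase, differed by 0.68 (95% interval −0.16 to 1.52), and vehicle replicate 2 at 4.87 lay above NTA replicate 3 at 4.67. Without NTA replicate 2 the difference of Msmo1 was 0.32, against 0.46 for Dhcr7. Tm7sf2, a sterol reductase, differed by 0.29, and it was 1 of only 3 enzymes whose highest rat was not NTA replicate 2. The remaining 3 enzymes were close to 0: the isomerase Ebp at 0.14, the desaturase Sc5d at 0.05 and the dehydrogenase Nsdhl at 0.03. Their 95% intervals were −0.25 to 0.53, −0.32 to 0.42 and −0.27 to 0.33.

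**Figure D2:**
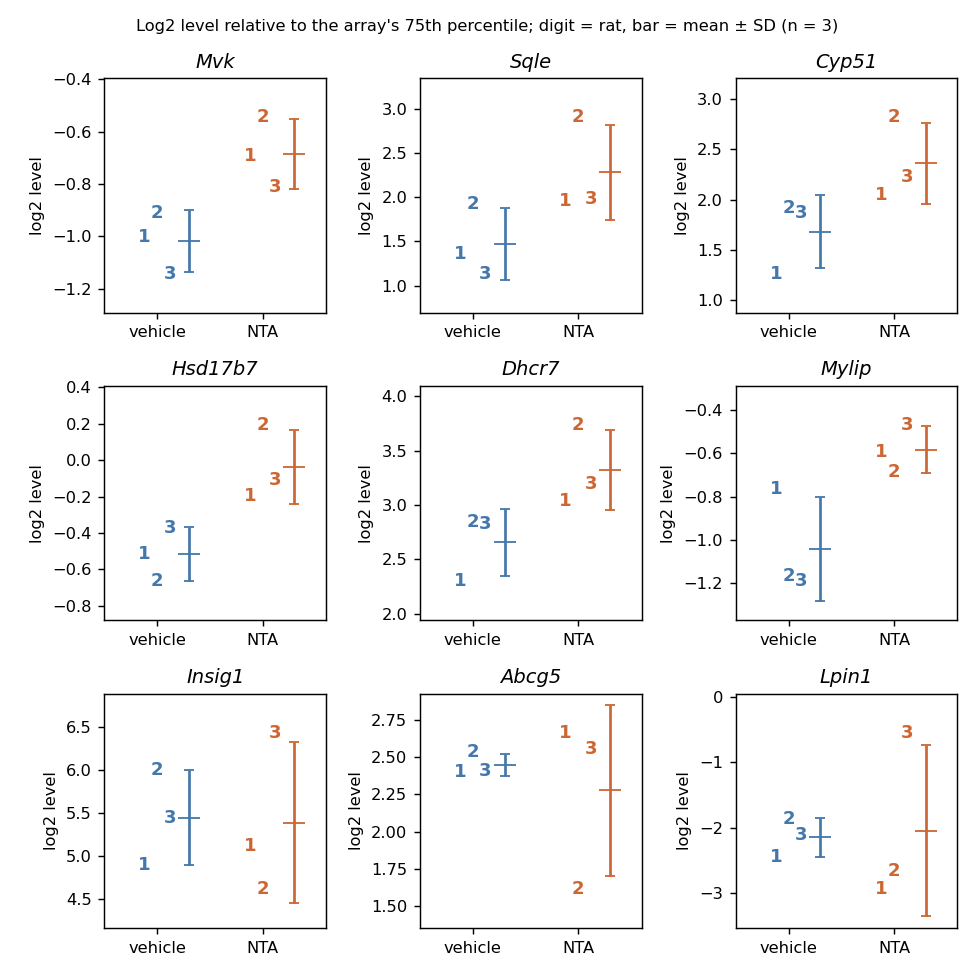
Log2 level relative to the array's 75th percentile (y axis, with its own scale in each panel) in the 2 groups (x axis) for 9 genes, with each rat drawn as its replicate number and a bar for the mean ± SD of 3 rats. The digits of the groups do not overlap for Mvk, Sqle, Cyp51, Hsd17b7, Dhcr7 and Mylip, and NTA replicate 2 is the lowest rat for Insig1 and Abcg5.

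Rats within a group also differed from one another. Over the enzymes the median SD was 0.26 with vehicle and 0.33 with NTA, beside a median difference of 0.33. For 17 of the 19 enzymes the range within the vehicle group or within the NTA group was wider than the difference between group means, and the same held for 28 of all 31 genes. The share over all features was not counted, so these counts are not a trait of the 31 genes. NTA replicate 2 was the highest of the 6 rats for 16 of the 19 enzymes, where it was highest for 15.6% of all features. Within the vehicle group, vehicle replicate 2 was the highest for 15 of 19. When each gene was set against its own mean over the 6 rats, the median of the enzymes was −0.25, 0.04 and −0.16 in vehicle replicates 1 to 3 and 0.025, 0.47 and 0.008 in NTA replicates 1 to 3. Vehicle replicate 2 thus stood at the level of NTA replicates 1 and 3, and compared with it NTA replicate 1 was higher for 10 of 19 enzymes and NTA replicate 3 for 7. NTA replicate 2 was above it for 18.

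**Figure D3:**
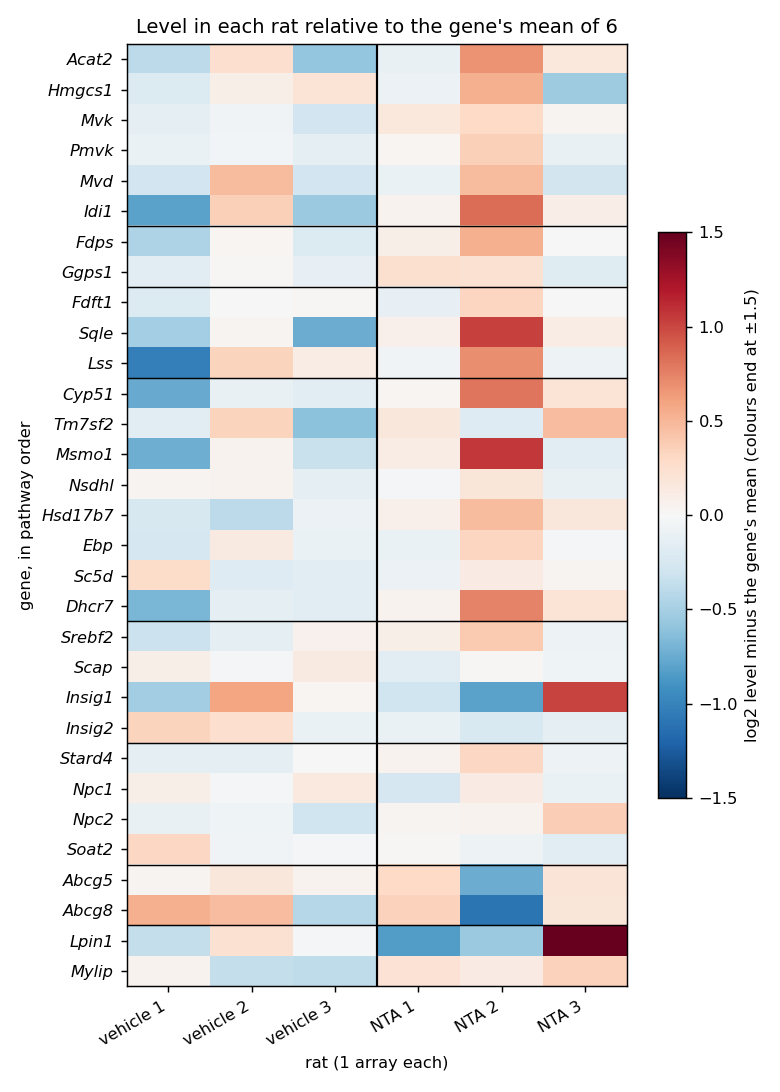
Log2 level of each of the 31 genes (y axis, in pathway order with black lines between steps) in each rat (x axis, 1 array each), relative to the gene's mean over the 6 rats (red above, blue below). The column of NTA replicate 2 is red for 18 of the 19 enzymes in the upper rows, and blue for Insig1, Insig2, Abcg5 and Abcg8 (the last not well above background in that rat).

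The median difference of the enzymes stayed above 0 whichever rat was left out, between 0.26 without NTA replicate 2 and 0.41 without vehicle replicate 2, with 16 to 19 of 19 enzymes above 0. The count of the 31 genes at an unadjusted p under 0.05 was less stable. It was 6 with all rats, 2, 8 and 4 without vehicle replicates 1, 2 and 3, and 5, 2 and 7 without NTA replicates 1, 2 and 3. The share of all features at that level was 7.57% with all rats. It was 8.45%, 6.75% and 7.91% without vehicle replicates 1, 2 and 3, and 6.07%, 6.39% and 6.79% without NTA replicates 1, 2 and 3. The 2 of 31 genes left without vehicle replicate 1 or without NTA replicate 2 were thus near the share over all features. Over all features, 9 passed the adjusted threshold with all rats, 4 without NTA replicate 1 and 1 without NTA replicate 2. Leaving out vehicle replicate 3 is also the comparison within the first scan day, and it gave an enzyme median of 0.27.

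**Figure D4:**
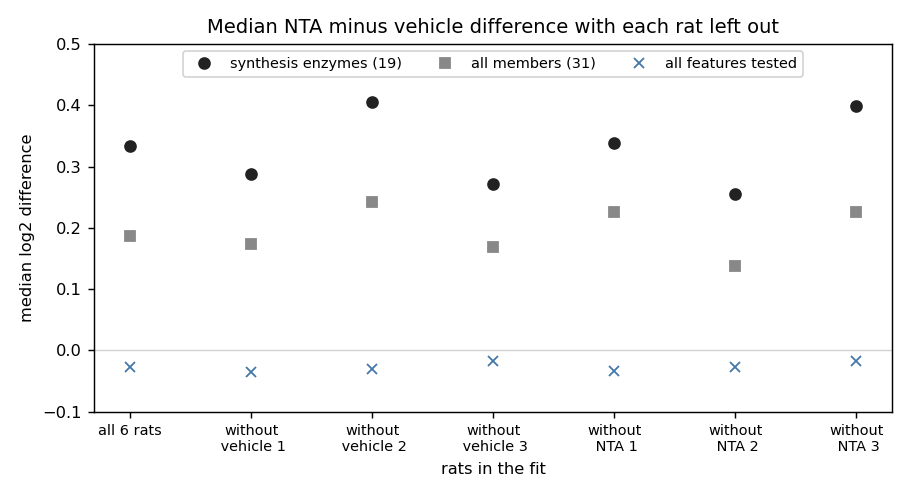
Median log2 difference between NTA and vehicle (y axis) over the 19 enzymes, all 31 genes and all features tested, with all 6 rats and with each rat left out (x axis). The enzyme median lies between 0.26 and 0.41 in the 6 leave-outs, and that of all features between −0.04 and −0.02.

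Of the 4 genes that encode or control SREBP2, 1 had a difference above 0 and 3 below, with a median of −0.10. Srebf2, which encodes SREBP2 and is itself under sterol control, was at 1.96, 2.14 and 2.34 with vehicle and 2.36, 2.68 and 2.21 with NTA, a difference of 0.27 (SE 0.17; limma, adjusted p = 0.758) with the groups overlapping. Scap, the escort, differed by −0.14 (95% interval −0.40 to 0.12). Insig2, the retention protein that is not driven by SREBP, was at 5.92, 5.84 and 5.49 with vehicle and 5.49, 5.37 and 5.44 with NTA. Its difference of −0.32 (SE 0.14; limma, adjusted p = 0.683) was below 0 in all 15 alternative analyses, several of which could not turn a sign. Vehicle replicate 3 lay just below NTA replicate 1 (5.488 and 5.490).

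Insig1, a retention protein and a known SREBP target, ran against the enzymes within the NTA group. It was at 4.89, 6.003 and 5.44 with vehicle and 5.11, 4.61 and 6.43 with NTA. NTA replicate 2, which was highest for most enzymes, was the lowest of the 6 rats for Insig1, and NTA replicate 3 was the highest, so the NTA rats ranged over 1.82 log2 units. The group means differed by −0.06 (95% interval −1.26 to 1.14; adjusted p = 0.988). All 4 probes of Insig1 put NTA replicate 3 highest and NTA replicate 2 lowest. On the other 3 probes NTA replicate 3 was at 4.38, 2.99 and 1.70 and NTA replicate 2 at 2.48, 1.00 and −0.17. In the vehicle group, by contrast, Insig1 was highest in replicate 2, the rat with the highest level of most enzymes there.

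Genes that move and store sterols were split around 0. Stard4, a sterol carrier and SREBP2 target, was at 2.42, 2.41 and 2.54 with vehicle and 2.60, 2.86 and 2.48 with NTA, a difference of 0.19 (95% interval −0.12 to 0.50; adjusted p = 0.782). Npc2, which hands cholesterol to NPC1 inside lysosomes, was at 2.47, 2.51 and 2.28 with vehicle and 2.62, 2.63 and 2.95 with NTA. Its groups did not overlap and differed by 0.31 (SE 0.14; limma, adjusted p = 0.676). Npc1, the membrane transporter that takes cholesterol out of lysosomes, differed by −0.15 (95% interval −0.46 to 0.16) on its brightest probe and by −0.07 to 0.20 on its 6 other probes. Soat2, which esterifies cholesterol for storage and secretion, differed by −0.15 (95% interval −0.47 to 0.18).

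Abcg5 and Abcg8 are half-transporters that pair to send sterols into bile. Abcg5 was at 2.40, 2.54 and 2.41 with vehicle and 2.67, 1.61 and 2.55 with NTA. NTA replicates 1 and 3 lay above all vehicle rats and NTA replicate 2 far below them, so the mean difference was −0.17 (95% interval −0.84 to 0.50) with all rats and 0.16 without NTA replicate 2. Abcg8 was dim, at −3.82, −3.90 and −4.79 with vehicle and at −4.01 and −4.17 in NTA replicates 1 and 3. In NTA replicate 2 it was not well above background, with a measured value of −5.45 that has no place in the order of the rats. The fitted difference of −0.38 (95% interval −1.43 to 0.68) takes in that value and was 0.07 without it. Its other 2 probes were not well above background on any array.

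Lpin1, a phosphatidate phosphatase and coactivator that SREBP can induce, was decided by 1 rat. It was at −2.46, −1.87 and −2.12 with vehicle and −2.94, −2.66 and −0.55 with NTA. NTA replicate 3 was more than 1 log2 unit above every other rat and the other NTA rats were below all vehicle rats. The mean difference was 0.10 (95% interval −1.37 to 1.56) with all rats and −0.65 without NTA replicate 3. Mylip, an LXR-induced ubiquitin ligase, was at −0.76, −1.17 and −1.19 with vehicle and −0.60, −0.69 and −0.47 with NTA. Its groups were separate, with a difference of 0.46 or 1.37-fold (SE 0.15; limma, adjusted p = 0.574). The second Mylip probe was not well above background in any vehicle rat and passed the filter through the NTA group alone, so its values are not set beside these.

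Across probes the picture of single rats was kept more often than not. The 31 genes had 60 probes, 57 of them past the filter, and 14 genes had only 1 probe. Of 25 further probes above background on all arrays, from 15 genes, 19 had a difference in the same direction as the probe used. The 6 that did not came from Npc1, Ggps1 and Insig1, whose differences on the probe used were −0.15, 0.19 and −0.06. The highest rat was the same as on the probe used for 17 of the 25, and so was the lowest for 17.

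Related genes outside the 31 were taken from lists of the wider pathway. None of them passed the threshold in limma over all features. Of all features, 7.57% were at an unadjusted p under 0.05 and 13.6% had separate groups. For lists of this size, 1 such gene is near those shares. Of 9 measured enzymes of other sterol and isoprenoid steps, 3 were above 0 and 6 below, with a median of −0.09 and 0 at an unadjusted p under 0.05. The smallest p belonged to the farnesyl transferase subunit Fntb at −0.57 (SE 0.24) and to Nus1, a subunit of the dolichol-making prenyl transferase, at −0.18 (SE 0.10), with all NTA rats of Nus1 below all vehicle rats. Of 12 measured genes of SREBP processing and sterol-controlled degradation the median was −0.02, with 5 above 0 and 1 higher at an unadjusted p under 0.05. That was Tmem97, a sterol-responsive membrane protein that binds NPC1, at 0.40 (SE 0.14), with the groups separate. Next came the COPII GTPase Sar1b at −0.22 (SE 0.13). Of 13 genes of LXR, efflux and esters the median was 0.03, with 7 above 0 and 1 higher at that level, the exporter Abcg1 at 0.52 (SE 0.22), with the groups separate. The LXR partner Rxra followed at 0.29 (SE 0.13).

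The fatty acid synthesis genes under SREBP1c, the sister factor of SREBP2, were set out for their pattern over rats. Of 11 measured, 9 were above 0 with a median difference of 0.11. The desaturase Fads2, at 0.76 (SE 0.30, limma, adjusted p = 0.638), was the 1 gene higher at an unadjusted p under 0.05. Over all features 7.57% were at that level. The desaturase Fads1 followed at 0.48 (SE 0.31). NTA replicate 2 was the highest rat for 7 of the 11. Relative to each gene's mean, the median was −0.39, 0.22 and −0.19 in vehicle replicates 1 to 3 and −0.08, 0.63 and −0.17 in NTA replicates 1 to 3. As with the cholesterol enzymes, vehicle replicate 2 and NTA replicate 2 were the highest of their groups, but NTA replicates 1 and 3 were here at the level of vehicle replicate 3.

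**Figure D5:**
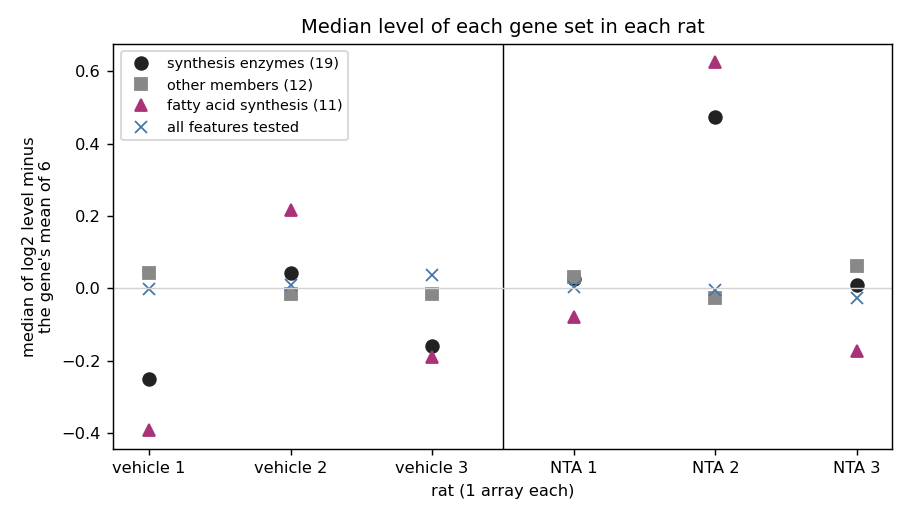
Median over each gene set of the log2 level relative to the gene's mean over the 6 rats (y axis), for each rat (x axis, 1 array each). NTA replicate 2 is the highest rat for the 19 cholesterol enzymes (0.47) and for 11 fatty acid synthesis genes (0.63), while the 12 other genes stay between −0.03 and 0.06.

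Markers of other cell types also differed in level between the groups, with 0 past the adjusted threshold, and their part in the differences above was not tested. All 6 hepatocyte markers had a lower mean with NTA (median −0.17), with 0 markers at an unadjusted p under 0.05 (7.57% of all features). Their summed level was 11.785 to 11.953 in the vehicle rats and 11.625 to 11.765 in the NTA rats. These sums did not overlap but came close, at 11.785 and 11.765. Taken singly, each of the 6 markers had overlapping groups. All 5 measured markers of sinusoidal endothelium were higher (median 0.54, 4 at that level), with summed levels of 5.55 to 5.82 and 5.89 to 5.996. All 4 erythroid markers were higher (median 0.80, 4 at that level), at 7.82 to 7.99 and 8.11 to 8.71, as were all 4 cell cycle genes (median 1.02, 3 at that level), at 0.30 to 0.78 and 1.103 to 1.58. All 6 Kupffer cell markers were higher (median 0.38, 1 at that level), with overlapping sums of 6.75 to 7.96 and 7.36 to 8.35. Biliary and stellate markers overlapped, at −0.02 to 0.52 and 0.12 to 0.52, and at 4.68 to 4.80 and 4.48 to 5.20. Of the adipocyte markers Cidec was measured, at 2.88 to 3.02 and 2.56 to 2.84, and the defining Adipoq and Plin1 were not among the measured genes.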

How the data were processed

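Total liver RNA from 6 rats, 3 per group, was labelled with Cy3 and hybridised to Agilent arrays. The scanner software was Feature Extraction, given as 10.7 by the submitters' processing notes and as 10.7.1.1 by the file headers, which also name design 035170 and build rn4. The deposited scanner files hold a background-subtracted intensity per spot (gProcessedSignal), per the file headers. In the table of values deposited by the authors each entry is the ratio of that signal to its array's 75th percentile (100% of probes matched within rounding). Its column medians were 0.096 to 0.1, so its scale and direction are known.

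Of 62976 spots, 61657 non-control probes were used. Spots flagged as non-uniform (1 to 14 per array) were set to missing. A probe was kept if well above background on all 3 arrays of a group. The unversioned accession gave 1 RefSeq symbol (GRCr8) for 27460 probes and none for 34197. The brightest probe stood for a gene, leaving 30353 features, and every fit and adjustment ran over all of them. NTA and vehicle were compared with limma 3.58.1 (R 4.3.3; lmFit and eBayes) on log2 of the deposited intensity minus log2 of the array's 75th percentile. The tests were two-sided, and Benjamini-Hochberg adjusted p was held to 0.05. The script was tested on simulated data. Precision is limited by the number of arrays.

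The 31 genes and the lists were chosen with earlier results of these data known. Every gene of the 31 is named. Values for every rat are given for those with an unadjusted p under 0.05 or separate groups and for Hmgcs1, Sqle, Fdft1, Insig1, Srebf2, Abcg5 and Stard4; Idi1, Lss, Insig2, Abcg8 and Lpin1 were added after their values were seen. Of each related list the 2 genes with the smallest p are named. Alternatives were normexp (offset 50, on the median spot signal, since a mean signal was not used here), quantile normalization, 2 other filters, the mean of a gene's probes, eBayes with trend and robust, slide, scan day or replicate number as a block, and each array left out. Deviations from the group means of same-numbered arrays correlated over features at r = 0.17, −0.006 and −0.075, so the numbers were not taken as pairs.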

Additional observations from a re-analysis of the deposited data

How the results depend on the processing

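No gene of the 31 passed the adjusted threshold in any of 15 alternatives. The lowest adjusted p in limma was 0.394, for Mylip with the mean of its probes. That mean takes in the dim second probe, which passed the filter through the NTA group alone. The medians over the 31 genes and over the 19 enzymes stayed above 0 in all 15 alternatives. The enzyme median was 0.27 with normexp and 0.33 with quantile normalization. The data do not bear out the replicate number as a pairing, since only replicate 1 correlated best with its own number. Used as a block, it left 0 of 30352 features past the threshold against 9 without it. At an unadjusted p under 0.05 were 10 of the 31 genes with that block against 6 without it. Over all features the share at that level was 7.65% with the block and 7.57% without it. With 1 array left out there were 1 to 8 features past the threshold.

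The sign was kept in all alternatives, several of which could not turn it, by 21 genes and turned in at least 1 by 10. With scan day as a block Hmgcs1 was at 0.026, Mvd at −0.054, Nsdhl at −0.032 and Sc5d at −0.013, and with the mean of its probes Npc1 was at 0.029. With 1 array left out Hmgcs1 ran from −0.34 to 0.19, Mvd from −0.15 to 0.33, Lss from −0.029 to 0.65, Nsdhl from −0.050 to 0.098, Sc5d from −0.032 to 0.20, Insig1 from −0.58 to 0.33, Abcg5 from −0.37 to 0.16, Abcg8 from −0.69 to 0.074 and Lpin1 from −0.65 to 0.54. These were differences near 0 or genes with 1 rat far from the others. Mylip was at 1.06 with the mean of its probes, which takes in the dim second probe, and 0.27 with normexp, against 0.46. Signal near background limits Abcg8, whose value in NTA replicate 2 was not well above it, and the second probe of Mylip.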
